A study of Homo sapiens with 12 samples.

Results

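H3K27ac landscapes of the pancreatic cancer lines BxPC3 and SUIT2 were compared from the peak lists of 4 ChIP-seq libraries, 2 of each line. The members were regions made by merging all peaks of the 4 lists that share at least 1 bp on chromosomes 1 to 22 and X, which gave 49510 regions. A region of BxPC3 alone had a peak in both BxPC3 lists and in neither SUIT2 list, a region of SUIT2 alone was defined the same way with the lines exchanged, and a shared region had a peak in all 4 lists. These 3 classes held 38401 of the 49510 regions. The series holds 12 samples; Panc327 libraries took no part here, and input libraries were used only in so far as the peak caller drew on them. The series title names SIRT6 and the integrated stress response, and no cells with altered SIRT6 are among these groups.

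Both groups were untreated human cells in standard culture with no stated genetic change made for the study. BxPC3, an established line, was derived from the primary tumour of a patient with pancreatic ductal adenocarcinoma and is known to have lost both copies of the cell cycle inhibitor gene CDKN2A. SUIT2, also an established line, was derived from such a tumour's metastasis in the liver. Each is a single line, so a difference between them is one between 2 lines and not between tumour types. Whether the replicates were grown as separate cultures is not stated, so every spread given is that between these libraries and may be technical.

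H3K27ac is the acetylation of lysine 27 on histone H3. It is written by the acetyltransferases p300 and CBP and is found at active promoters and active enhancers, of which enhancers are the more cell-type-specific. Long, dense stretches of the mark are known from enhancer clusters near genes that define a cell's identity. In pancreatic cancer, enhancer landscapes are known to differ between tumours of the classical and the basal-like (squamous) subtype. No hg19 annotation was at hand, so regions are named by position (hg19 throughout), no gene was assigned to a region, and the marker genes of the lines could not be checked.

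Peaks numbered 34113 in BxPC3 replicate 1, 38335 in BxPC3 replicate 2, 29983 in SUIT2 replicate 1 and 31421 in SUIT2 replicate 2. The median peak was 1070 and 1030 bp wide in BxPC3 and 1504 and 1481 bp in SUIT2. Sequencing depth is not given in the lists; numbers estimated from the fold and p of the peaks were 27.4 and 43.1 M ChIP tags in BxPC3 and 36.7 and 42.4 M in SUIT2, with the BxPC3 pile-ups scaled down to 20.6 and 28.1 M for calling. The SUIT2 lists therefore rest on more tags at the level at which peaks were called, and depth and line cannot be told apart in counts and widths. With 2 libraries against 2, the smallest two-sided p of an exact permutation test is 0.333, so no test between the lines is given.

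BxPC3 and SUIT2 held large sets of H3K27ac regions that the other line lacked in both of its libraries. BxPC3 alone held 12325 regions (24.9% of all regions), SUIT2 alone held 9146 (18.5%), and 16930 (34.2%) were shared. Of the regions called in both BxPC3 libraries, 41.3% belonged to BxPC3 alone. Of those called in both SUIT2 libraries, 33.7% belonged to SUIT2 alone. Regions that split the replicates of a line against the other line were few: 575 had both BxPC3 libraries and 1 SUIT2 library, and 1057 had both SUIT2 libraries and 1 BxPC3 library. Another 5576 regions had 1 BxPC3 library and nothing else, of which 4689 came from replicate 2, and 3717 had 1 SUIT2 library and nothing else.

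**Figure D1:**
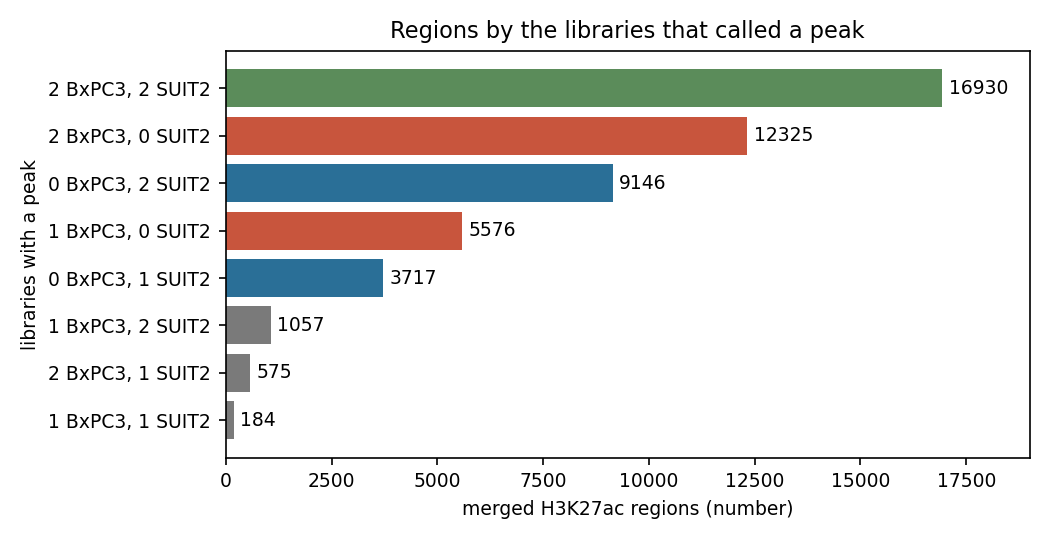
Number of merged regions (x axis) for each combination of libraries with a peak (y axis), with BxPC3 in red, SUIT2 in blue, all 4 libraries in green and other mixtures in grey. The 3 longest bars are the shared regions (16930), BxPC3 alone (12325) and SUIT2 alone (9146).

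Which line had more regions of its own depended on how the lists were matched. When only the 29983 strongest peaks of every list were taken, BxPC3 alone held 9363 regions and SUIT2 alone 9810. With the same covered length from each list (48.7 Mb, the strongest peaks first), the counts were 11396 and 2085. The ratio of BxPC3-alone to SUIT2-alone regions was 1.35 as defined and ranged from 0.954 to 5.47 over the 10 alternatives. SUIT2 alone held more regions than BxPC3 alone only with the same number of peaks. The counts as defined therefore give no order between the lines.

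Libraries of one line shared most of the bases they covered, and libraries of different lines shared far fewer. The Jaccard index, the bases covered in both lists over the bases covered in either, was 0.814 for the BxPC3 pair and 0.868 for the SUIT2 pair. The 4 pairs across the lines had indices of 0.392, 0.385, 0.399 and 0.393, all below both pairs within a line. In bases, BxPC3-alone regions took up 26.3 and 26.2% of the covered length of BxPC3 replicates 1 and 2, and SUIT2-alone regions 21.4 and 21.6% of that of the SUIT2 replicates. Shared regions took up 71.5 and 68.4% in BxPC3 and 75.1 and 73.6% in SUIT2.

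Line-only regions were mostly of low to middle strength within their own list, and the strongest peaks of each line lay almost wholly in shared regions. The −log10 q of a peak, the authors' own per-peak value, was ranked within each list. The median BxPC3-alone region stood at percentile 34.0 of the list of replicate 1 and 42.2 of replicate 2. The median SUIT2-alone region stood at percentiles 30.3 and 33.8. The median shared region stood at 72.6 and 75.7 in BxPC3 and at 70.1 and 71.4 in SUIT2. Of the 1000 strongest peaks, 978 and 980 in the BxPC3 lists and 981 and 977 in the SUIT2 lists lay in shared regions, and 21, 19, 14 and 16 in regions of the line alone. A region with a peak in 4 lists is favoured to be strong by its definition, so these ranks describe the classes and test nothing.

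Along each list the share of line-only peaks was highest among weak to middle peaks and fell towards the strong end. In BxPC3 replicate 1 it was 51.6% in the weakest decile, 59.9% in the third, 44.1% in the sixth and 3.14% in the strongest. In BxPC3 replicate 2 it was 21.8% in the weakest decile and peaked in the fifth at 57.2%. In SUIT2 replicate 1 it went from 46.6% in the weakest decile through 60.4% in the third to 2.04% in the strongest, and in SUIT2 replicate 2 from 28.3% to 2.10%. Both second replicates had low shares at the weak end, and both had more peaks and more estimated tags than the first replicate of their line.

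**Figure D2:**
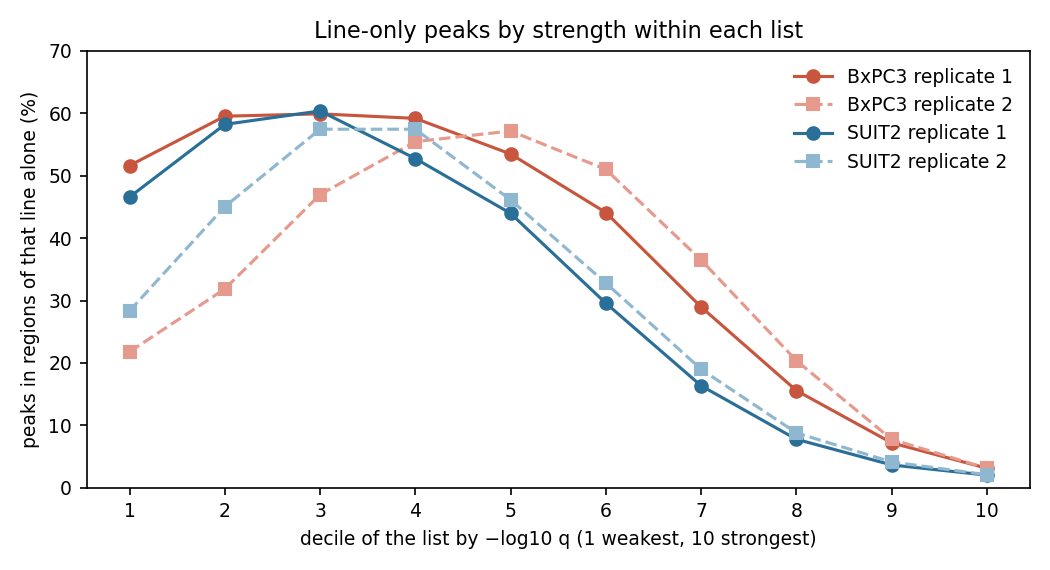
Share of peaks that lie in regions of that line alone (y axis, %) by decile of the list's own −log10 q (x axis, 1 weakest to 10 strongest), 1 line per library. All 4 libraries end between 2.04 and 3.14% in the strongest decile.

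Many line-only regions were nevertheless far above the calling threshold. The weaker of both libraries had a −log10 q of at least 50 in 2685 BxPC3-alone regions (21.8%) and 3163 SUIT2-alone regions (34.6%), and of at least 100 in 850 (6.90%) and 1617 (17.7%). The −log10 q grows with depth, so these shares are not compared between the lines. At the threshold itself, the weakest BxPC3-alone region had a −log10 q of 8.18 in its weaker library and the weakest SUIT2-alone region 8.35. Just outside the rule lay the regions called in 1 library only, with a median −log10 q of 14.1 and 14.9 for BxPC3 replicates 1 and 2 and of 13.6 and 14.4 for SUIT2. A missing peak says that H3K27ac was not detectable at this depth and threshold, not that the mark was absent.

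Replicates placed the mark at nearly the same base in line-only regions. The highest peak summits of the replicates lay a median of 53 bp apart in BxPC3-alone regions and 63 bp apart in SUIT2-alone regions. They lay within 200 bp of each other in 86.2 and 80.5% of those regions. Both summits lie in the same merged region by definition, so its width bounds their distance. The median widths were 925 and 1154 bp. The strength order was also alike between replicates, with a Spearman rho of the −log10 q of 0.863 over the 12325 BxPC3-alone regions and 0.919 over the 9146 SUIT2-alone regions. These are correlations across regions of the same 2 libraries, which are not independent replicates.

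Most line-only regions were narrow, and SUIT2 had the longer upper tail. The median BxPC3-alone region was 925 bp wide, with quartiles of 572 and 1568 bp, and the median SUIT2-alone region was 1154 bp wide, with quartiles of 680 and 1915 bp. The order of the medians turned when a SUIT2 library was left out: SUIT2 minus BxPC3 was 228.5 bp as defined, -168 bp without SUIT2 replicate 1 and -137 bp without SUIT2 replicate 2. At least 10 kb wide were 39 SUIT2-alone regions and 10 BxPC3-alone regions, and the widest measured 49.6 and 17.7 kb. All SUIT2 lists had wider peaks in general, with 301 and 332 peaks of at least 10 kb against 59 and 82 in BxPC3.

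The broadest BxPC3-alone region lay on chromosome 1 from 95110852 to 95128533. Replicate 1 covered 17316 bp of it and replicate 2 covered 17384 bp, each with 2 peaks, and its strongest peak stood at percentiles 96.3 and 94.0 of the lists. The highest folds over local background there, the authors' own values, were 61.8 and 55.8. The nearest SUIT2 peak was 36.0 kb away. A second BxPC3-alone region lay shortly before it, from 95085001 to 95091193, and stood at percentiles 99.0 and 99.3, so both the breadth and the strength rule picked the same neighbourhood.

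Next in breadth was a BxPC3-alone region on chromosome 17 from 38640761 to 38658193, of which the replicates covered 16837 and 17207 bp. It was followed by one on chromosome 1 from 207192218 to 207207094, called as a single peak in both replicates with 14785 and 14587 bp. The region on chromosome 5 from 52625877 to 52637841 was called as 3 peaks in replicate 1 and as 1 peak in replicate 2, and no SUIT2 peak lay within 218.0 kb. On chromosome 12, a region from 52909833 to 52920552 covered 10097 and 10618 bp, stood at percentiles 95.7 and 94.4 and had no SUIT2 peak within 234.0 kb. Replicates thus gave similar covered lengths for each of these regions, although not always as 1 peak.

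The strongest BxPC3-alone regions were mostly narrower. The first lay on chromosome 5 from 31853023 to 31856847 (3.83 kb), at percentiles 99.8 and 99.7, with folds of 73.8 and 97.7 and no SUIT2 peak within 213.7 kb. The second lay on chromosome 20 from 23026637 to 23032975, with folds of 63.2 and 107.9, and the third on chromosome 16 from 57651077 to 57659000, with folds of 79.1 and 86.0. The nearest SUIT2 peaks were 90.3 and 80.1 kb away. One of the 10 strongest, on chromosome 20 from 49042723 to 49050188, had a SUIT2 peak only 1.08 kb from its edge, and it was no longer a BxPC3-alone region when peaks within 500 bp were joined.

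The tenth of the broadest BxPC3-alone regions needs its background beside it. It lay on chromosome 8 from 32160494 to 32170577, with folds of 44.7 and 39.9 in BxPC3. In the 2 Mb window that holds it, the local background behind SUIT2 peaks was 3.90 and 3.40 times the genome-wide level, the highest of the 1035 windows with at least 8 peaks in both SUIT2 libraries. That window held 21 BxPC3-alone regions and 1 SUIT2-alone region. At the same pile-up, a raised local background makes a peak harder to call. The part of background in the missing SUIT2 peaks was not tested.

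SUIT2-alone H3K27ac included domains far broader than any in BxPC3 alone, and peaks were wider in the SUIT2 lists in general. The broadest lay on chromosome 9 from 21544595 to 21594190. Replicate 1 covered 49320 bp of it in 2 peaks and replicate 2 covered 48730 bp in 3 peaks, with highest folds of 151.5 and 167.4 at percentile 99.7 of both lists. The nearest BxPC3 peak was 859.4 kb away. This region was at once the broadest and the second strongest region of SUIT2 alone. The lists cannot tell whether the DNA of this stretch is present in BxPC3.

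The next broadest SUIT2-alone domains lay on chromosomes 3, 5 and 18. On chromosome 3 the region from 139006191 to 139033757 was a single peak in both replicates with 27161 and 27241 bp, and its nearest BxPC3 peak was 28.9 kb away. On chromosome 5 the region from 82844768 to 82866674 covered 20860 and 21907 bp, and no BxPC3 peak lay within 470.3 kb. On chromosome 18 a domain from 55093914 to 55114237 covered 20281 and 20290 bp with folds of 105.8 and 95.9. The lengths of these single peaks differed by under 100 bp between the replicates on chromosomes 3 and 18.

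By strength, the first SUIT2-alone region lay on chromosome 20 from 42982411 to 42987108, only 4.70 kb wide, at percentiles 99.8 and 99.9 with folds of 117.2 and 126.5. Its nearest BxPC3 peak was 42.4 kb away. The third lay on chromosome 9 from 21970983 to 21976896, inside the same BxPC3-free interval as the 49.6 kb domain. The fifth lay on chromosome 12 from 121412744 to 121424979, with folds of 144.9 and 144.6. Of the broadest and strongest SUIT2-alone regions, 4 lay inside that interval.

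Line-only regions came in runs, in which neighbouring regions along a chromosome all belonged to 1 line. A run is here a series of line-only regions with no other region called in both libraries of a line between them. Of the BxPC3-alone regions 30.5% lay in runs of at least 5 and 25.5% stood singly. Of the SUIT2-alone regions 20.3% lay in runs of at least 5 and 35.7% stood singly. Runs of at least 10 numbered 76 in BxPC3 and 34 in SUIT2. Of the 40033 regions called in both libraries of a line, 12325 were of BxPC3 alone and 9146 of SUIT2 alone. The number of line-only regions sets how often they meet, so these shares are not compared between the lines. How many runs these numbers alone would give was not tested.

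The longest run of SUIT2-alone regions was on chromosome 9, with 29 regions from 20980326 to 22449949. SUIT2 replicates 1 and 2 had 34 and 38 peaks in it, which covered 155.6 and 159.5 kb. BxPC3 had no peak in either library from 20685209 to 23590715, an interval of 2906 kb. Within it the 1 Mb window from 21 to 22 Mb held 25 regions, and all 25 belonged to SUIT2 alone. The local background behind the SUIT2 peaks of the run was 1.30 and 1.16 times the genome-wide level. The lists cannot tell DNA that is absent from a line from DNA without called H3K27ac, and the background of the peak caller cannot fall under the genome-wide level. The known loss of CDKN2A in BxPC3 was not placed by position here, and its part in this interval was not tested.

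On chromosome 7 a run of 27 SUIT2-alone regions reached from 117023707 to 117623829. The SUIT2 replicates had 41 and 40 peaks in it that covered 92.8 and 105.6 kb, with a highest fold of 91.0 and 95.8. No BxPC3 peak lay between 116595340 and 117637865, a stretch of 1043 kb. The next BxPC3 peak followed 14.04 kb after the run. The median peak of the run stood only at percentiles 20.3 and 20.6 of the SUIT2 lists, and the strongest at 93.2 and 93.1.

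Runs of 22 SUIT2-alone regions were found on chromosome 16 from 50840243 to 52016858 and on chromosome 21 from 43049973 to 43642077. On chromosome 21 the SUIT2 peaks covered 49.8 and 53.7 kb, and BxPC3 had no peak over 849.7 kb. The fifth run lay on chromosome 22 from 33469802 to 34318902, with 19 regions inside a BxPC3-free stretch of 1691 kb. In these 3 runs the background behind the SUIT2 peaks lay between 1.00 and 1.21 times the genome-wide level. By windows of 1 Mb, the most SUIT2-alone regions lay on chromosome 10 from 114 to 115 Mb, 35 of its 47 regions called in both libraries of a line, with 10 shared and 1 of BxPC3 alone.

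In BxPC3 the longest run lay on chromosome 14 from 36852722 to 37619725, with 28 regions. BxPC3 replicates 1 and 2 had 34 and 40 peaks in it that covered 53.7 and 63.2 kb. No SUIT2 peak lay between 36790130 and 37640904, a stretch of 850.8 kb. The 1 Mb window from 37 to 38 Mb held 31 BxPC3-alone regions among 34, with 3 shared and 0 of SUIT2 alone. The median peak of the run stood at percentiles 38.0 and 39.2 and the strongest at 85.5 and 91.7. The background behind its BxPC3 peaks was 1.57 and 1.27 times the genome-wide level.

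The second BxPC3 run held 25 regions over 360.0 kb on chromosome 6 from 11136556 to 11496548. Its peaks covered 26.2 and 30.8 kb, and SUIT2 had none over 440.8 kb. A further run of 21 regions lay on chromosome 14 from 61684645 to 62021499, and its strongest peak stood at percentiles 97.8 and 97.3. SUIT2 peaks returned 4.27 kb after it. The run on chromosome 5 from 25083510 to 31414280 was of another kind: its 20 regions were spread over 6331 kb and covered only 17.7 and 21.0 kb. The background behind its BxPC3 peaks was 1.97 and 1.57 times the genome-wide level. At a −log10 q of at least 20 it held 13 regions. The fifth run lay on chromosome 1 from 186461270 to 187319181, with 18 regions in a SUIT2-free stretch of 1650 kb.

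**Figure D3:**
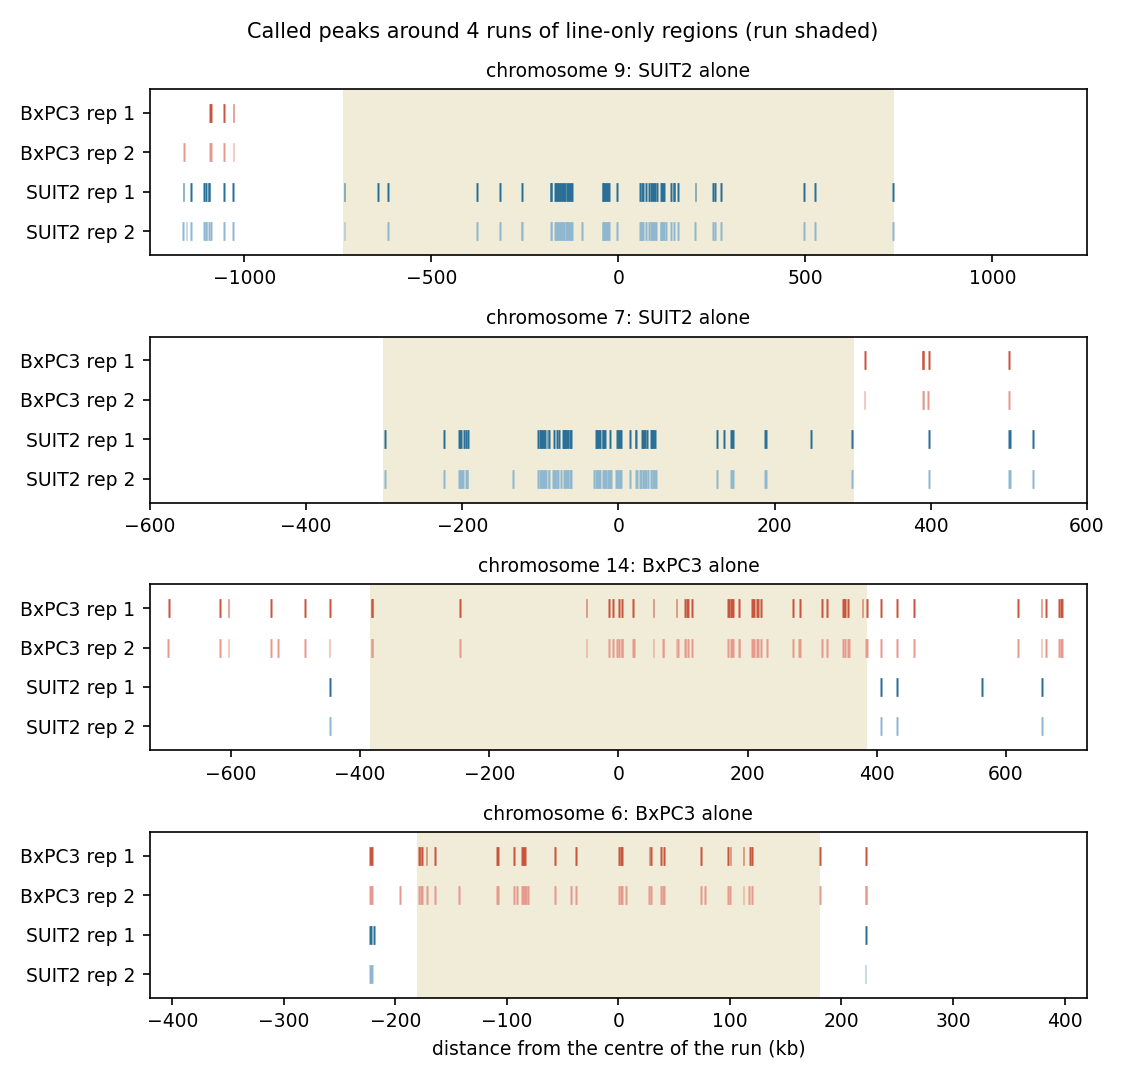
Called peaks (bars) of the 4 libraries (rows) around 4 runs of line-only regions, by distance from the centre of the run in kb (x axis), with the run shaded; very narrow peaks are drawn at a minimum width. In the upper panels both BxPC3 rows are empty across the runs of 29 and 27 SUIT2-alone regions, and in the lower panels both SUIT2 rows are empty across the runs of 28 and 25 BxPC3-alone regions.

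Over 9 other ways of processing the lists, the number of line-only regions in a run varied between 15 and 38 for the run on chromosome 9, between 12 and 41 for that on chromosome 7, and between 21 and 40 for the first on chromosome 14. The lowest number came with the same covered length from each list for the runs on chromosomes 9 and 7, and with a −log10 q of at least 20 for that on chromosome 14. Both take fewer peaks, which leaves fewer regions to count.

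In other places both lines had many regions of their own side by side. The window of chromosome 15 from 71 to 72 Mb held 24 BxPC3-alone, 17 SUIT2-alone and 11 shared regions. On chromosome 9 from 33 to 34 Mb there were 20 BxPC3-alone, 16 SUIT2-alone and 22 shared regions. On chromosome 20 from 48 to 49 Mb there were 14, 28 and 23. The BxPC3 background in that part of chromosome 20 was 1.87 and 1.69 times the genome-wide level and that of SUIT2 1.72 and 1.44 times. Of the 1542 windows with at least 10 regions, 417 held at least 5 regions of each line alone.

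Line-only regions were set against shared ones by chromosome. Over the genome there were 72.8 BxPC3-alone and 54.0 SUIT2-alone regions per 100 shared regions. Chromosome 19 was lowest for both lines, with 33.9 and 23.2. Chromosomes 8, 18 and 21 were highest for BxPC3, with 105.9, 106.0 and 105.0. Chromosomes 4, 2 and 10 were highest for SUIT2, with 80.1, 74.98 and 73.7.

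The balance of the lines also differed between chromosomes. On chromosome 14 there were 518 BxPC3-alone and 228 SUIT2-alone regions, so it held 4.20% of the former and 2.49% of the latter, a ratio of shares of 1.69. On chromosome 20 there were 443 and 225, a ratio of shares of 1.46. On the other side, chromosome 22 held 183 and 213 (ratio of shares 0.638), chromosome 17 held 400 and 443 (0.670) and chromosome 10 held 523 and 537 (0.723). Over the 10 alternatives the ratio of shares stayed between 1.60 and 2.19 on chromosome 14, between 1.36 and 1.74 on chromosome 20 and between 0.597 and 0.714 on chromosome 22. Neighbouring regions move together, so regions of a chromosome are not independent and no test was made. The median background behind peaks went with the ratio of shares on some chromosomes and not on others. Over all peaks it was 1.23 and 1.08 times the lowest level in BxPC3 and 1.08 and 1.00 times in SUIT2. On chromosome 20 it was 1.90 and 1.64 in BxPC3 and 1.499 and 1.37 in SUIT2. On chromosome 14 it was 1.44 and 1.27 in BxPC3 and 1.00 in both SUIT2 libraries. Chromosome 15 had 1.51 and 1.27 in BxPC3 and 1.00 in both SUIT2 libraries, with a ratio of shares of 1.13. Chromosome 18 had 1.02 and 1.00 in BxPC3 and 1.00 in both SUIT2 libraries, with a ratio of 1.37. The part of background in the balance was not tested.

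**Figure D4:**
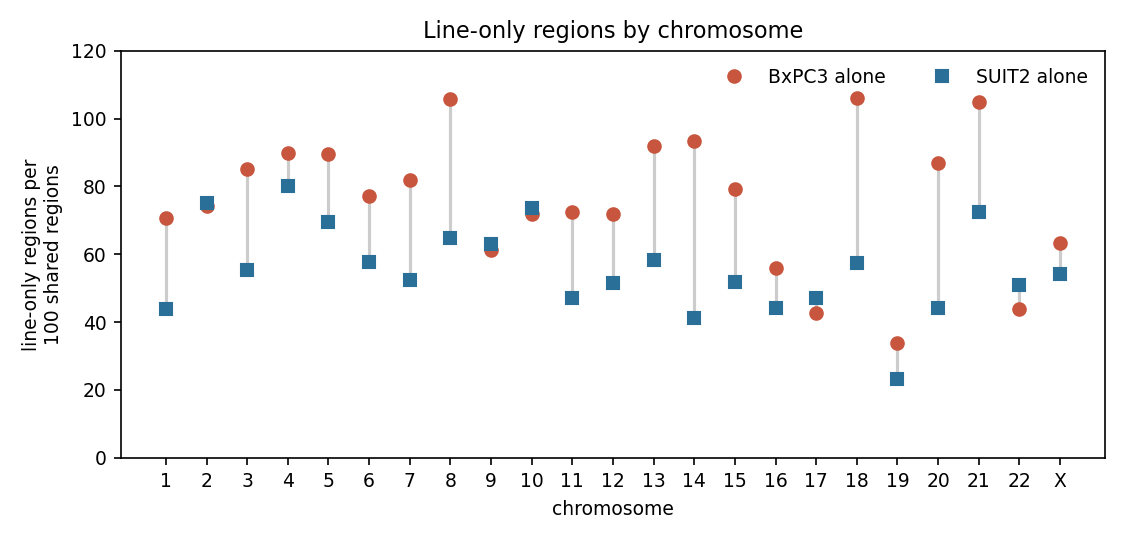
Regions of BxPC3 alone (circles) and of SUIT2 alone (squares) per 100 shared regions (y axis) on each chromosome (x axis). The pair is widest apart on chromosome 14 (93.5 against 41.2), and squares lie above circles on chromosomes 2, 9, 10, 17 and 22.

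Distances from line-only to shared regions were spread widely. The median BxPC3-alone region was 34.8 kb from the nearest shared region, with quartiles of 10.2 and 107.1 kb, and the median SUIT2-alone region 26.3 kb, with quartiles of 7.06 and 82.2 kb. Within 10 kb of a shared region lay 24.7% of the BxPC3-alone and 30.4% of the SUIT2-alone regions. More than 100 kb away lay 26.5 and 21.3%.

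The strength order of shared regions was less alike between the lines than between replicates. Over the 16930 shared regions the Spearman rho of the −log10 q was 0.972 between the BxPC3 libraries and 0.989 between the SUIT2 libraries, and between 0.702 and 0.711 for the 4 pairs across lines. These are again correlations across regions within the same libraries. The highest summits lay a median of 39 and 33 bp apart between replicates and 51 to 56 bp apart across lines, and within 200 bp in 87.4 and 89.0% of the regions between replicates and in 75.1 to 76.1% across lines. In most shared regions the strongest point of the mark was thus at nearly the same base in both lines.

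Shared regions differed in breadth between the lines far more often than between replicates. The median region was covered over 1717 and 1834 bp in the BxPC3 libraries and over 2069 and 2142 bp in the SUIT2 libraries. Covered length was at least 2 times larger or smaller between the lines, by their means, in 3300 of the 16930 shared regions (19.5%). Between replicates this was so in 390 (2.30%) for BxPC3 and 156 (0.921%) for SUIT2. Both SUIT2 libraries covered more bases than both BxPC3 libraries in 10506 shared regions (62.1%), and both BxPC3 libraries covered more than both SUIT2 libraries in 3697 (21.8%). As the median SUIT2 region was wider over the whole list, the first share is not by itself a trait of single regions.

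**Figure D5:**
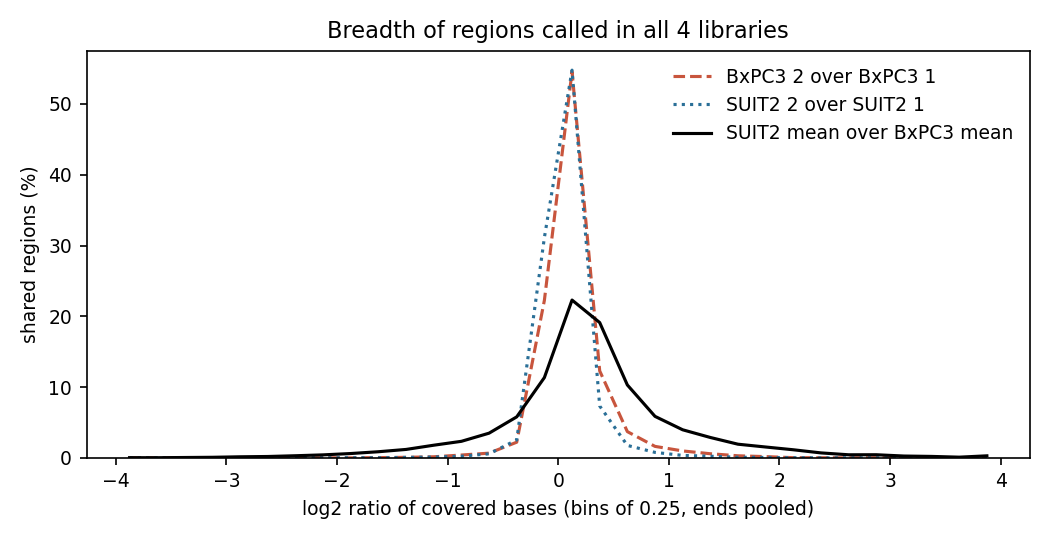
Distribution of the log2 ratio of covered bases (x axis, bins of 0.25) over the 16930 shared regions (y axis, % of regions) for BxPC3 replicates (dashed), SUIT2 replicates (dotted) and the SUIT2 mean over the BxPC3 mean (solid). The solid curve is the widest, with a median of 0.24 against 0.08 and 0.04 for the replicates.

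By the stricter measure, in which the SUIT2 library with less covers at least 2 times as much as the BxPC3 library with more, 1795 shared regions (10.6%) were broader in SUIT2. The reverse held for 704 (4.16%). With the same covered length from each list the counts were 1171 and 167. With the same number of peaks they were 1472 and 671.

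The largest ratios of breadth in favour of SUIT2 came from short BxPC3 peaks inside long SUIT2 domains. On chromosome 17 from 48757924 to 48779447, BxPC3 covered 0.348 and 0.388 kb and SUIT2 21.5 and 21.1 kb. On chromosome 1 from 199995752 to 200015983, BxPC3 covered 0.388 and 0.529 kb and SUIT2 20.2 and 19.96 kb. On chromosome 3 from 14469240 to 14484206, BxPC3 covered 0.374 and 0.266 kb and SUIT2 13.2 and 14.6 kb. On chromosome 20 from 42471009 to 42481138, BxPC3 covered 0.293 and 0.288 kb and SUIT2 9.98 and 10.03 kb. On chromosome 11 from 75028162 to 75064483, BxPC3 covered 1.14 and 1.03 kb and SUIT2 33.6 and 36.3 kb. The BxPC3 peaks of the first 2 of these stood at or below percentile 24.5 of their lists, and those of SUIT2 at or above 88.7. A ratio of at least 2 was kept in 5 of 9 alternatives on chromosomes 17, 1 and 3. It was kept in 7 on chromosome 20 and in 8 on chromosome 11. On chromosomes 17, 1 and 3 no shared region was left at a −log10 q of at least 20. The same held with the same number of peaks and with the same covered length.

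Shared regions that were broader in BxPC3 were shorter. The most unequal lay on chromosome 2 from 169866145 to 169873261, with 6.27 and 6.73 kb in BxPC3 and 0.454 and 0.441 kb in SUIT2. On chromosome 2 from 113550334 to 113554320 BxPC3 covered 3.99 and 3.90 kb and SUIT2 0.266 and 0.296 kb. On chromosome 5 from 134521645 to 134527520 BxPC3 covered 5.84 and 5.88 kb and SUIT2 0.387 and 0.452 kb. The SUIT2 peaks of these 3 regions stood between percentiles 6.88 and 37.02 of their lists. A ratio of at least 2 was kept in 7, 6 and 7 of 9 alternatives.

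Some shared regions changed their place in the strength order. Ranked among the 16930 shared regions of each library, 1357 were in the upper 10% in both BxPC3 libraries. Of these, 75 were in the lower 50% in both SUIT2 libraries. With the lines exchanged, 1470 were in the upper 10% and 44 of them in the lower 50%. No shared region (0) stood in the upper 10% of one replicate and the lower 50% of the other within either line. The region on chromosome 7 from 150810106 to 150814716 stood at percentiles 97.04 and 98.5 in BxPC3 and at 0.372 and 2.12 in SUIT2. The region on chromosome 12 from 7070002 to 7074932 stood at 99.8 and 99.7 in BxPC3 and at 5.07 and 4.03 in SUIT2. In the other direction, the region on chromosome 11 from 86185415 to 86199707 stood at 3.28 and 9.58 in BxPC3 and at 99.3 in both SUIT2 libraries. There SUIT2 covered 13884 and 14132 bp and BxPC3 574 and 1509 bp.

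Shared regions next to line-only regions were broader in that same line more often than shared regions were in general. Of the 2241 shared regions that were the nearest one to a SUIT2-alone region within 10 kb, 79.4% were covered more by both SUIT2 libraries, against 62.1% of all shared regions, and 10.4% more by both BxPC3 libraries, against 21.8%. Of the 2372 shared regions nearest to a BxPC3-alone region within 10 kb, 41.6% were covered more by both BxPC3 libraries and 40.5% more by both SUIT2 libraries. The order of these shares turned with the same covered length (29.4% BxPC3, 52.6% SUIT2) and without BxPC3 replicate 2 (42.9% and 49.7%). It also turned with 50% cover (33.7% and 43.5%) and with joining at 500 bp (41.0% and 41.8%). In every alternative the BxPC3 share stayed above that of all shared regions. Farther away the shares lay closer to those of all shared regions: at over 100 kb, 72.8% next to SUIT2-alone regions were covered more by both SUIT2 libraries, and 26.6% next to BxPC3-alone regions more by both BxPC3 libraries. Line-only regions and their shared neighbours were called from the same libraries, so this is a description of where the differences lie.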

How the data were processed

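Peak lists of 4 H3K27ac libraries, BxPC3 and SUIT2 with 2 each, were used. The submitters' processing notes name hg19, the aligner Bowtie 1.1.1, bcl2fastq 1.8.4 and MACS2, whose version and settings are not given in the sources used here. Every library had a list of its own, so peaks were called per library. The deposited fold (pile-up as a ratio to the local background), the −log10 p-value, the −log10 q-value and the deposited summit position are the authors' values per peak, used only to describe, rank or filter peaks within a list. On other chromosomes, 0 to 3 peaks per list were left out.

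Regions were merged at 1 bp of overlap; bedtools 2.31.1 gave the same 49510 regions. The pile-up and local background of each peak were solved from its fold (pseudocount of 1 assumed) and p, which explained 99.9 to 100% of peaks within 0.001 of the −log10 p. Tag numbers further assume a genome of 2700000000 bp and a fragment as long as the narrowest peak. Background is given as a ratio to the lowest level of the list, by median in 2 Mb windows with at least 8 peaks or over the peaks of a run. Work was done with scipy 1.17.1, pandas 2.3.3 and numpy 2.4.6 in Python 3.11.15 and drawn with matplotlib 3.10.9, and the merging and the solving were tested on simulated data.

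Named regions followed fixed rules: per line the 10 broadest and the 10 strongest line-only regions (by the weaker library), the 5 longest runs and the 5 windows of 1 Mb with the most members, and per direction the 10 shared regions with the largest ratio of covered bases. Not all of these are printed, and which were left out followed no rule. Windows with both kinds, rank changes, neighbours and chromosomes were added later, and their examples were picked with the values known. The classes and rules were chosen with earlier results of these data known. Planned gene lists need hg19 gene positions; the gene table at hand is on GRCh38.p14, coordinates were not converted, and no gene list was analysed here.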

Additional observations from a re-analysis of the deposited data

How the results depend on the processing

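Alternatives were a −log10 q of at least 20, a minimum cover of 50% of a region, joining of peaks within 500 bp, the same number of peaks, the same covered length and leaving out each library. The Jaccard difference (0.449 within minus between lines) and the number of regions in all 4 libraries (12142 to 17839) stayed within 1.5 times of their values; without 1 library they ranged from 0.419 to 0.479 and from 17132 to 17839. BxPC3-alone regions numbered 12510 to 17495 and SUIT2-alone regions 9311 to 12361 without 1 library, since the line reduced to 1 library then needs a peak only there. SUIT2-alone regions fell to 2085 with the same covered length, and BxPC3-alone regions to 8048 when both own libraries needed a −log10 q of at least 20, an alternative chosen after seeing the data. Shared regions broader in BxPC3 numbered 466 at a −log10 q of at least 20 and 167 with the same covered length, where those broader in SUIT2 numbered 1171. With 50% cover both counts were 0 by construction. Without 1 library they ranged from 711 to 1052 and from 1865 to 2612. The median width of SUIT2-alone minus BxPC3-alone regions (228.5 bp) was 450 bp with 50% cover, 58 bp with joining at 500 bp, 51 bp with the same number of peaks and 1525 bp with the same covered length, and -168 (without SUIT2 replicate 1) to 551 bp without 1 library. It was -137 bp without SUIT2 replicate 2. No paired analysis was possible because no result comes from a fitted test. Precision is limited by 2 libraries per line and by depths that are only estimated.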
